A study of Mus musculus with 12 samples.

Results

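Loss of Flt3 ligand was examined in splenic cDC2 by comparing Flt3L KO cDC2 with WT cDC2, which accounted for 4 of the 12 arrays of the series, 2 per genotype. Membership was taken from the sample titles alone. The other 8 arrays held Flt3 KO cDC2 and the cDC1 of the WT, Flt3 KO and Flt3L KO genotypes, again 2 arrays each. All mice were at steady state with no treatment named, and mature dendritic cells were sorted from spleens digested with Collagenase B and DNAse. The labels call the arrays biological replicates and give no strain, sex, age, deleted part of either gene, sort gate or number of mice per array. The p-values therefore measure the spread between these arrays.

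FLT3 is a receptor tyrosine kinase on dendritic cell progenitors and on mature conventional dendritic cells, and FLT3 ligand is the growth factor that binds it and supports the output of these cells. Conventional dendritic cells have 2 branches. cDC1 carry XCR1 and CLEC9A, depend on IRF8 and BATF3 and specialise in cross-presentation, whereas cDC2 carry SIRPA and CD11b (Itgam), use IRF4 and present antigen chiefly to CD4 T cells. In the spleen, cDC2 are divided into an ESAM-high subset that needs Notch2 signalling and an ESAM-low subset that shares features with monocytes.

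A value below is the deposited intensity, on a linear scale, of the brightest probe set of a gene. A difference is the Flt3L KO mean minus the WT mean on the log2 scale, with its standard error (SE) from limma fitted to all 12 arrays. A gene was called where its Benjamini-Hochberg adjusted p over 14953 tested genes was under 0.05, and rose and fell are used only of called genes. Because RNA was measured in bulk, fewer cells of a type and less RNA per cell cannot be told apart.

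The labelled identity was checked first. Sirpa, which encodes the SIRPA surface receptor of cDC2, read 3585 and 3674 on the WT cDC2 arrays and 3751 and 3626 on the Flt3L KO cDC2 arrays, while the cDC1 arrays lay between 102 and 150. Xcr1, the chemokine receptor of cDC1, read 73.7 and 59.6 in WT cDC2 and 62.0 and 70.6 in Flt3L KO cDC2, against 2421 to 3020 on the cDC1 arrays. The 2 genotypes of cDC2 overlapped for both markers and each array carried the markers of its labelled cell type. Flt3, the receptor, read 1817 and 1742 in WT cDC2, 1646 and 1637 in Flt3L KO cDC2, and 351 and 371 in Flt3 KO cDC2. It was thus low in the Flt3 KO arrays and did not pass the test between Flt3L KO and WT (difference -0.12, SE 0.07, limma adjusted p = 0.502).

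Flt3l, the targeted ligand gene, read 145 and 149 in WT cDC2 and 109 and 118 in Flt3L KO cDC2. The groups did not overlap, but signal remained in the knockout, and the labels do not say whether the probe set lies in the deleted part, so it does not check the genotype. The difference of -0.37 (SE 0.08, limma adjusted p = 0.0267) passed the test with all arrays, but its adjusted p lay between 0.0563 and 0.209 when any 1 of the 4 arrays was left out. In cDC1 the same probe set read 114 and 113 in WT and 120 and 129 in Flt3L KO. Among 11 tested genes within 10 places of Flt3l in the gene order, 0 were called by limma, and the nearest, Aldh16a1, differed by 0.01 (SE 0.09).

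Flt3L KO cDC2 differed from WT cDC2 in 291 genes, which is 1.95% of the genes tested. Of these, 155 rose (1.04%) and 136 fell (0.91%). In all 155 rises and all 136 falls the genotypes did not overlap, so separation of the arrays adds nothing to a call. A change beyond 2-fold was reached by 20 rises and 6 falls, the smallest called rise was 1.28-fold, and 2185 genes had an unadjusted p under 0.05. The median difference of all tested genes was 0.02 and the median SE 0.09. Among the named genes, Kcnma1, Clec4e, C1qa, C1qb and Mid1 had the largest rises, and Serpinb2, Mmp9, Pnma1, Cd101 and Serpinb10 were among those that fell furthest. The number of calls depended on the arrays: it was 72 without either WT cDC2 array, 73 without Flt3L KO cDC2 replicate 1 and 164 without replicate 2. Among the 155 rises, 101 read higher in Flt3L KO replicate 1 than in replicate 2.

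**Figure D1:**
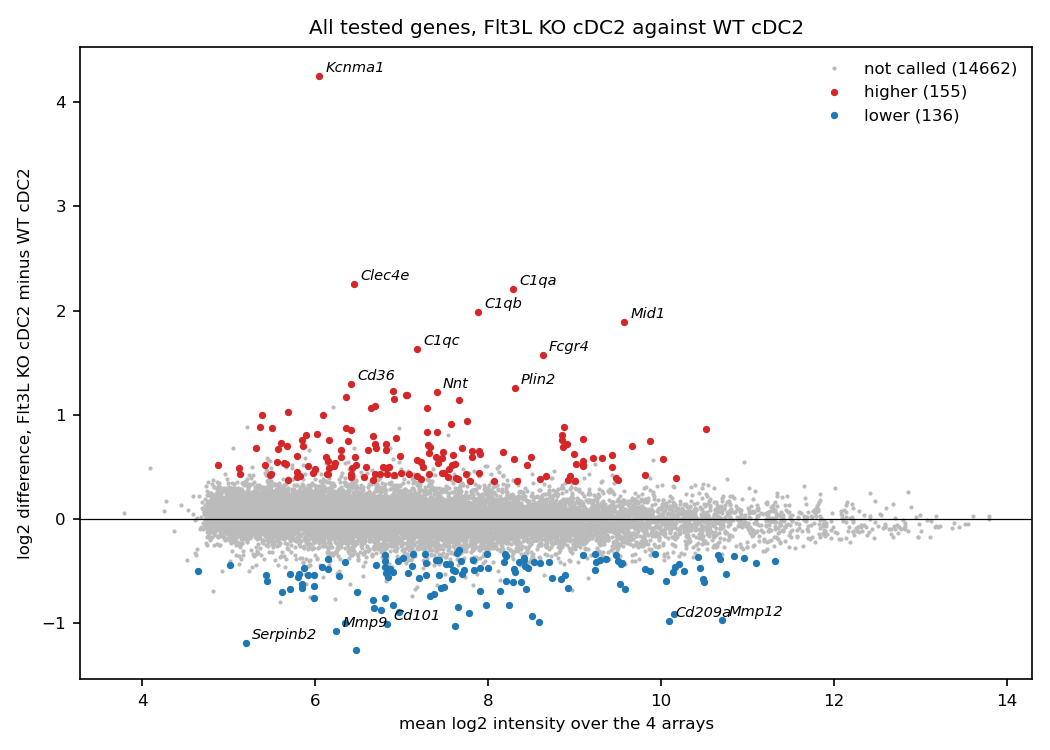
Each point is 1 of 14953 tested genes, with its mean log2 intensity over the 2 WT cDC2 and 2 Flt3L KO cDC2 arrays on the x axis and the log2 difference, Flt3L KO minus WT, on the y axis. The 155 called rises (red) reach further from 0 than the 136 called falls (blue), and Kcnma1, Clec4e and C1qa lie highest.

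Genes of the complement component C1q formed a group at the top of the rises. C1q is the recognition unit of the classical complement pathway, is made mostly by macrophages and some dendritic cells, and helps clear apoptotic cells. Its 3 chains are encoded by C1qa, C1qb and C1qc, which lie together on mouse chromosome 4. Because the chains moved together, the 250 bases upstream of the start of C1qb and C1qc are shown from RefSeq (GRCm38.p6, 5′ to 3′ on the gene's minus strand), with Clec4e, another of the largest rises, beside them. Capitals mark GAGGAA or its reverse complement TTCCTC, a sequence that the myeloid factor PU.1 is known to bind.
C1qb, chr4:136886201-136886450: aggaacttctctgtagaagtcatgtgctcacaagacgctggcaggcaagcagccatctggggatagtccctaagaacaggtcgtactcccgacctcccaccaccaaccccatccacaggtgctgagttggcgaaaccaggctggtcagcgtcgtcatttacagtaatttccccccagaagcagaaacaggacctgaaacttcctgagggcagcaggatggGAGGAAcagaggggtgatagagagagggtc
C1qc, chr4:136892915-136893164: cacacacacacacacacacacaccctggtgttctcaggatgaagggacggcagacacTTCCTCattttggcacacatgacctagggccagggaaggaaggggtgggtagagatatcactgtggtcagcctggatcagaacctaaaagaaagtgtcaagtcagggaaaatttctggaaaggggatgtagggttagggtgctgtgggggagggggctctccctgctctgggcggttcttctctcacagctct
Clec4e, chr6:123289872-123290121: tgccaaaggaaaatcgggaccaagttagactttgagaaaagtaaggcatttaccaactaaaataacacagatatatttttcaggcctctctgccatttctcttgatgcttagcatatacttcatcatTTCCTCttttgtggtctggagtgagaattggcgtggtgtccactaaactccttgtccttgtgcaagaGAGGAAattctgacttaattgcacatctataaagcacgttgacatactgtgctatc
The letters occurred 1 time each for C1qb and C1qc and 2 times for Clec4e, on either strand, and 23.3% of 32851 promoter windows of this length held them at least once. The windows searched for Cd36, Plin2, Mertk and both starts of Nr1h3 did not hold them, nor did those of 2 of 3 Pparg starts. Those of Axl and Fcgr4 held them 1 time each. For C1qa, Vcam1 and Fabp5 no window was available.

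C1qa read 135 and 157 on the WT cDC2 arrays and 790.0 and 569 on the Flt3L KO cDC2 arrays. Both knockout arrays stood far above both WT arrays, a 4.60-fold rise (log2 2.20, SE 0.15, limma adjusted p = 1.7e-05). C1qb read 119 and 118 in WT and 569 and 386 in Flt3L KO (log2 1.99, SE 0.18, limma adjusted p = 0.000178). C1qc read 84.0 and 80.5 in WT and 339 and 192 in Flt3L KO (log2 1.63, SE 0.22, limma adjusted p = 0.00287). For all 3 chains the higher knockout array was replicate 1, and all 3 kept their call when any 1 array was left out.

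The macrophage list, which holds the C1q genes, had 8 rises and 2 falls among 18 tested members, beside 1.04% and 0.91% of all genes. Its median difference was 0.55 against 0.02 over all genes. That median was 0.41 when dim genes were kept and 0.88 when the dimmest share of 0.5 of genes was left out. Mertk, a receptor tyrosine kinase that binds apoptotic cells through bridging proteins, read 30.4 and 28.6 in WT and 60.6 and 57.4 in Flt3L KO (log2 1.00, SE 0.08, limma adjusted p = 8.17e-05). Vcam1, an adhesion molecule of splenic macrophages and stroma, read 84.5 and 90.9 in WT and 194 and 205 in Flt3L KO (log2 1.19, SE 0.08, limma adjusted p = 1.7e-05). In both genes the 2 genotypes lay far apart relative to the spread within each. Axl, a relative of Mertk, read 152 and 161 in WT and 330.1 and 274 in Flt3L KO (log2 0.94, SE 0.15, limma adjusted p = 0.00845), with an adjusted p of up to 0.0966 without Flt3L KO replicate 1. The remaining rises were Nr1h3, described with the lipid genes, and Hmox1, the haem-degrading enzyme, which went from 117 and 130 to 189 and 215 (named after its values were seen), and had adjusted p-values of 0.134 to 0.27 with 1 array left out.

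Other macrophage markers, also named after their values were seen, had values that differed in either direction. Adgre1, which encodes the F4/80 antigen, fell from 996 and 943 to 601 and 617, and Timd4, a phosphatidylserine receptor of resident macrophages, fell from 238 and 215 to 149 and 138. Without WT replicate 1 their limma adjusted p-values were 0.0574 and 0.0959. Cd68, a lysosomal glycoprotein, read 1573 and 1518 in WT and 1576 and 1617 in Flt3L KO. The red pulp and marginal zone markers Cd163 and Marco were dim and overlapped between genotypes, at 27.4 and 30.3 against 29.2 and 28.1, and at 54.8 and 58.2 against 52.6 and 53.6. Vsig4 stayed under the lower quartile of every one of these 4 arrays, and Siglec1 read 54.0 and 52.0 against 63.9 and 59.6. Fcna, a ficolin, read 68.3 and 57.2 in WT and 78.3 and 86.2 in Flt3L KO, and Maf, a transcription factor of macrophages, 57.4 and 59.9 against 67.9 and 70.1. Slc40a1, the iron exporter ferroportin, was too dim to be tested and read 20.9 and 17.5 against 39.5 and 37.6. Spic, a transcription factor of red pulp macrophages, read 139 and 142 in WT and 195 and 311 in Flt3L KO. Siglec1, Fcna, Maf and Spic were thus higher on both knockout arrays without passing (limma adjusted p = 0.174, 0.135, 0.35 and 0.0758). The summed intensity of the tested macrophage genes was 4079 and 3979 on the WT arrays, 4272 and 4421 on the Flt3 KO arrays and 5573 and 5122 on the Flt3L KO arrays. The part of macrophages in these results was not tested. Without WT cDC2 replicate 1 the list held 6 rises and 0 falls called by limma, and 6 or 7 rises without any other of the 4 arrays.

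**Figure D2:**
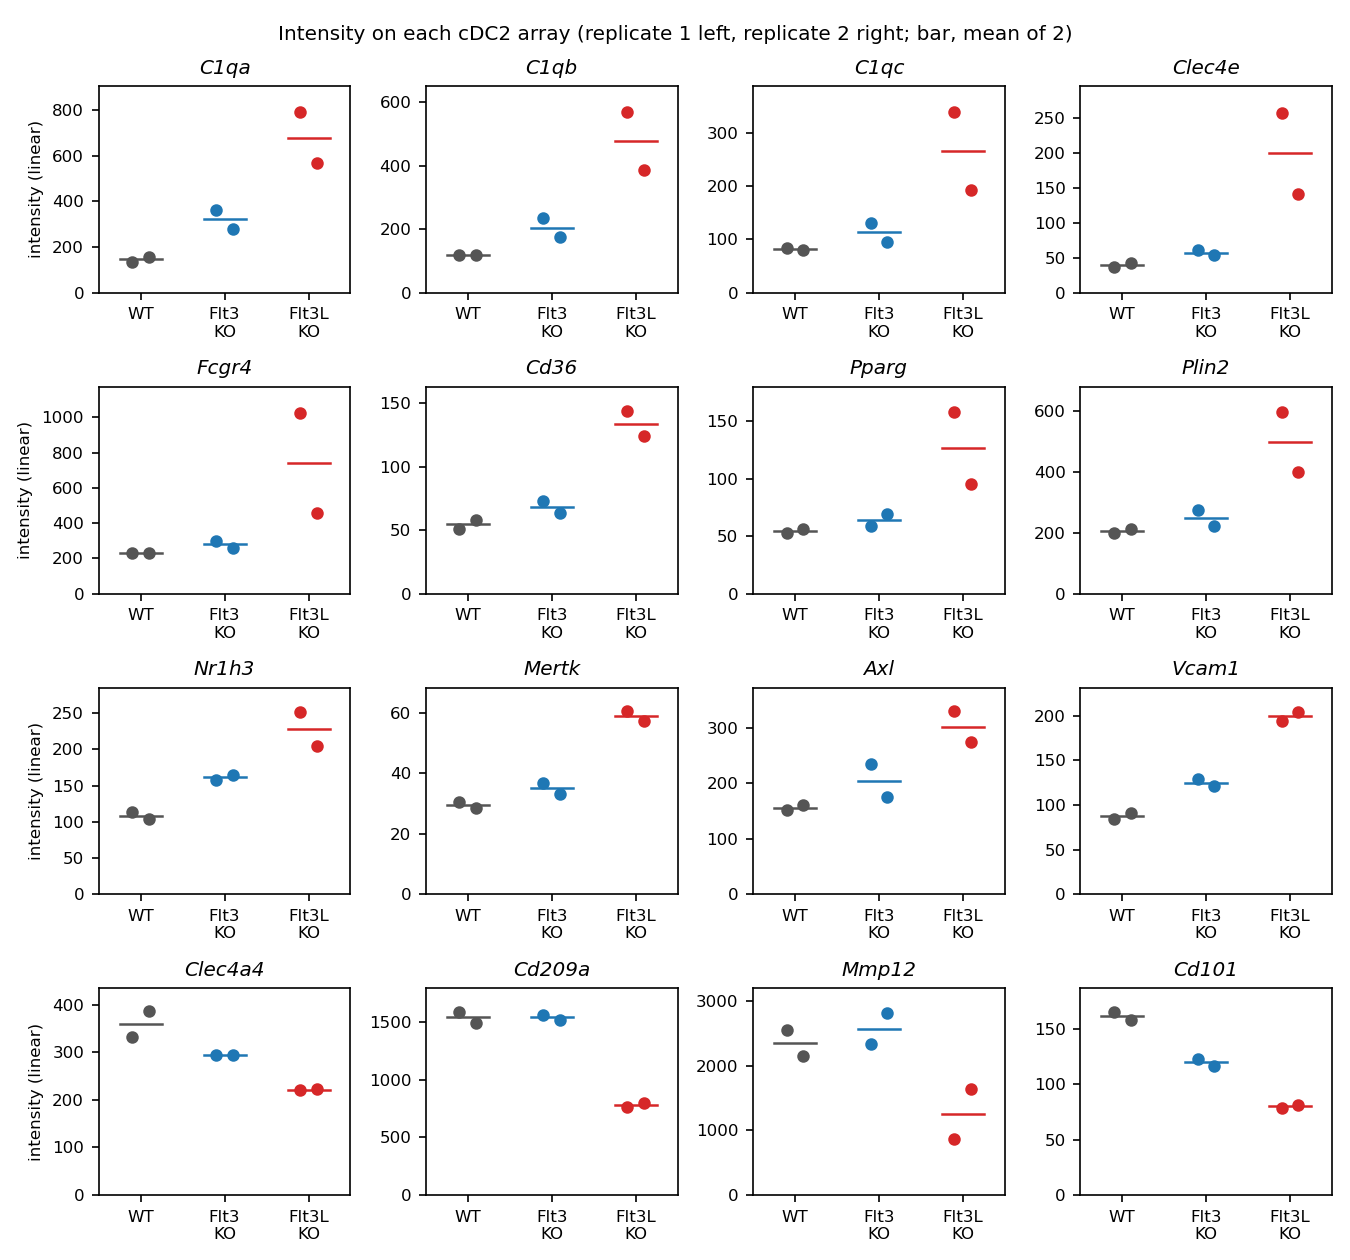
Linear intensity of 16 genes on each cDC2 array, with 2 arrays per genotype as points (replicate 1 on the left) and their mean as a bar. For the first 12 genes both Flt3L KO arrays lie above both WT arrays, and for the last 4, Clec4a4, Cd209a, Mmp12 and Cd101, they lie below.

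Genes for taking up and storing lipid formed a smaller group. Of 30 tested fatty acid genes, 4 rose and 0 fell by limma (median 0.06), beside 1.04% of all genes that rose. Cd36, a scavenger receptor that imports long-chain fatty acids, read 51.1 and 57.7 in WT and 143 and 124 in Flt3L KO (log2 1.30, SE 0.10, limma adjusted p = 7.11e-05). Plin2, the coat protein of lipid droplets, read 199 and 211 in WT and 599 and 399 in Flt3L KO (log2 1.25, SE 0.15, limma adjusted p = 0.00166). Both kept their call with any 1 array left out. Pparg, a lipid-sensing nuclear receptor known to induce Cd36 and Plin2, read 53.1 and 56.0 in WT and 158 and 95.4 in Flt3L KO (log2 1.17, SE 0.17, limma adjusted p = 0.00479; 0.0536 without WT replicate 1). Fabp5, a fatty acid carrier, rose from 336 and 366 to 623 and 605. Nr1h3, which encodes the oxysterol receptor LXR alpha, rose from 113 and 104 to 252 and 204 (log2 1.07, SE 0.11, limma adjusted p = 0.000377). In the cholesterol list, of which it is a member, 2 of 23 tested genes rose and 0 fell by limma (median 0.19). The second was Pmvk, a kinase of sterol synthesis (log2 0.36, SE 0.08, limma adjusted p = 0.0332), whose adjusted p was up to 0.225 without WT replicate 2.

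Clec4e, which encodes the mycobacterial glycolipid receptor MINCLE, read 37.4 and 42.5 in WT and 258 and 141 in Flt3L KO. The knockout arrays differed between themselves, yet both lay well above WT (log2 2.26, SE 0.21, limma adjusted p = 0.000178). Fcgr4, an activating IgG receptor, read 232 and 228 in WT and 1027 and 456 in Flt3L KO, so its size rested largely on replicate 1 (log2 1.57, SE 0.25, limma adjusted p = 0.0076). Its adjusted p was 0.0708 without WT replicate 2. Fcgr3, another activating IgG receptor, was tighter, at 124 and 130 in WT and 241 and 214 in Flt3L KO (log2 0.84, SE 0.08, limma adjusted p = 0.000338). These were the 2 rises among 13 tested Fc and complement receptors, of which 0 fell by limma (median 0.04). Of all genes 1.04% rose. Pilra, an inhibitory receptor of myeloid cells, rose from 71.7 and 91.6 to 198 and 164.

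The monocyte list held 4 rises and 0 falls called by limma among 13 tested genes (median 0.30), beside 1.04% of all genes that rose. Its median was 0.07 when dim genes were kept, and again 0.07 when a share of 0.5 was left out as dimmest. Lyz2, the lysozyme gene of myeloid cells, read 716 and 735 in WT and 1178 and 1259 in Flt3L KO (log2 0.75, SE 0.09, limma adjusted p = 0.00141). Ace, the angiotensin-converting enzyme that marks patrolling monocytes, read 344 and 348 in WT and 718 and 569 in Flt3L KO (log2 0.88, SE 0.15, limma adjusted p = 0.0123), and Treml4, a receptor shared by patrolling monocytes and dendritic cells, read 331 and 424 in WT and 671 and 570 in Flt3L KO (log2 0.72, SE 0.16, limma adjusted p = 0.0352). The fourth, Ly6i, a relative of Ly6c, was named after its values were seen and read 36.0 and 31.0 in WT and 79.9 and 47.0 in Flt3L KO (log2 0.88, SE 0.19, limma adjusted p = 0.0376; up to 0.269 without WT replicate 2). Lyz2 held with any 1 array left out, whereas Ace reached an adjusted p of 0.121 without Flt3L KO replicate 1 and Treml4 0.274 without WT replicate 1. The list then held 1 call without either WT array or Flt3L KO replicate 1, and 3 without Flt3L KO replicate 2. Csf1r and Cx3cr1, receptors of the monocyte lineage, differed by 0.32 (SE 0.09, limma adjusted p = 0.119) and 0.39 (SE 0.18, limma adjusted p = 0.353). Of the 13 tested members, 9 had a positive difference. Nr4a1 was lower without a call, at 6953 and 7066 in WT and 6290 and 6093 in Flt3L KO. S100a4 was likewise lower (3437 and 3390 against 3162 and 3229), while Cd14 was higher without a call (822 and 808 against 955 and 1198). Ccr2 overlapped (105.2 and 128.5 against 120.8 and 104.5). Summed over the tested members, intensity was 17041 and 17117 in WT and 18059 and 17464 in Flt3L KO, and the part of monocytes in the result was not tested.

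Of 23 tested genes that define cDC2, 0 rose and 3 fell by limma, with a median of -0.05, beside the 0.91% of all genes that fell. Cd209a, a DC-SIGN-related lectin, read 1587 and 1491 in WT and 759 and 799 in Flt3L KO (log2 -0.98, SE 0.13, limma adjusted p = 0.00251), still above the 113 to 225 of the cDC1 arrays. Clec4a4, the lectin DCIR2 recognised by the 33D1 antibody, read 332 and 387 in WT and 221 and 222 in Flt3L KO (log2 -0.70, SE 0.13, limma adjusted p = 0.0185; up to 0.198 without WT replicate 2). Rbpj, the DNA-binding partner of Notch, fell by 0.42 on the log2 scale (SE 0.08, limma adjusted p = 0.0195), a call lost without any 1 array (up to 0.186 without WT replicate 2) and when the probe sets of the gene were averaged (limma adjusted p = 0.298). Irf4 and Itgam were lower but did not pass, with differences of -0.35 (SE 0.12, limma adjusted p = 0.19) and -0.35 (SE 0.11, limma adjusted p = 0.145).

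Of the Notch2-dependent ESAM-high genes, 2 of 11 tested fell, Clec4a4 and Rbpj, and 0 rose by limma (median -0.10). Of all genes, 0.91% fell and 1.04% rose. Esam itself read 143 and 130.2 in WT and 142 and 137 in Flt3L KO, and Cd4, the surface antigen of most ESAM-high cells, read 618 and 591 in WT and 414 and 500.1 in Flt3L KO. Esam overlapped (difference 0.03, SE 0.10, limma adjusted p = 0.92), whereas Cd4 was lower on both knockout arrays without passing (difference -0.41, SE 0.10, limma adjusted p = 0.0655). The ESAM-low list had 3 rises, Lyz2, Csf3r and Fcgr3, and 1 fall, Cd209a, among 17 tested genes (median 0.09). Csf3r, the granulocyte colony-stimulating factor receptor, read 167 and 160.3 in WT and 278 and 248 in Flt3L KO (log2 0.68, SE 0.11, limma adjusted p = 0.00845; up to 0.0922 without Flt3L KO replicate 1). Among 13 genes shared by all conventional dendritic cells, Bcl11a, a transcription factor needed by dendritic progenitors, and Adam19, a metalloprotease, fell by 0.40 and 0.34 on the log2 scale, while Itgax and Zbtb46 did not pass (limma adjusted p = 0.467 and 0.696). Neither Bcl11a nor Adam19 held a call without any 1 of the 4 arrays.

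Several genes typical of cDC1 were higher in Flt3L KO cDC2. Of 23 tested cDC1 genes, 5 rose and 0 fell by limma, with a median of 0.18, beside 1.04% of all genes that rose. Irf8, the lineage transcription factor, read 311 and 275 in WT and 431 and 409 in Flt3L KO (log2 0.52, SE 0.08, limma adjusted p = 0.00787). That is far under the 2867 to 3368 of the cDC1 arrays. P2ry14, a receptor for UDP-sugars, read 34.2 and 38.3 in WT and 82.8 and 65.2 in Flt3L KO (log2 1.02, SE 0.11, limma adjusted p = 0.000542). Cadm1, an adhesion molecule, rose from 119 and 120 to 193 and 160.3, and Rab7b, a small GTPase of late endosomes, from 104 and 93.2 to 130.0 and 135. The fifth was Cd36. The defining cDC1 markers did not follow: Xcr1, Clec9a and Batf3 differed by 0.00, -0.21 and 0.18 (limma adjusted p = 0.998, 0.486 and 0.296). Only Cd36 and P2ry14 of the 5 held with any 1 array left out. Irf8, Cadm1 and Rab7b reached adjusted p-values of 0.102 (without WT replicate 2), 0.158 (without Flt3L KO replicate 1) and 0.27 (without WT replicate 2).

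**Figure D3:**
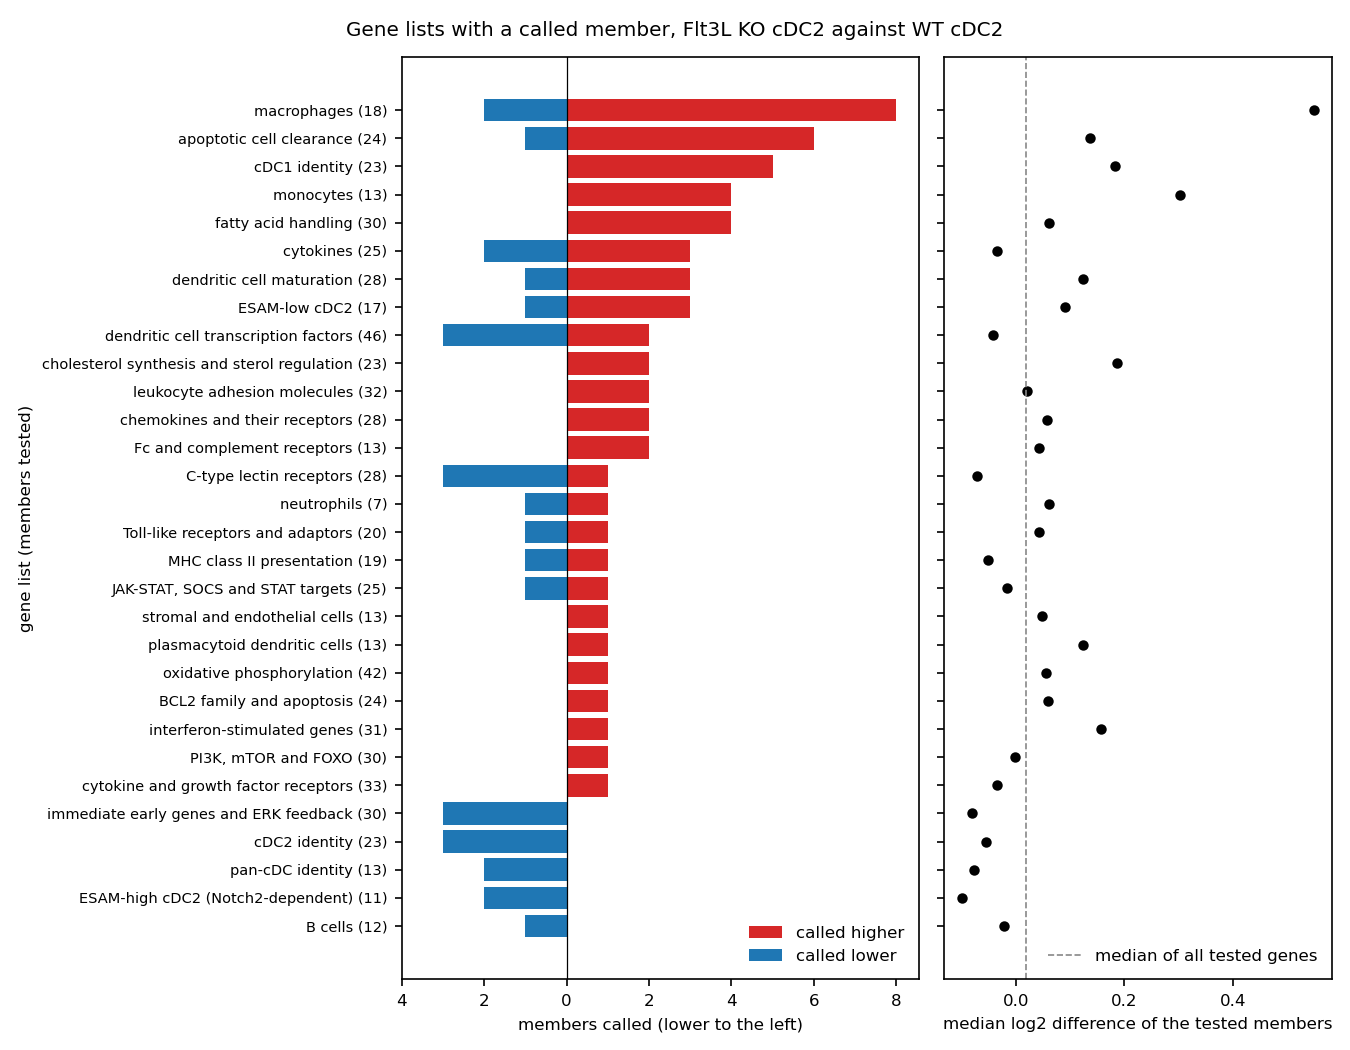
For each of the 30 gene lists with a called member, the left panel counts members called higher (red) and lower (blue) in Flt3L KO cDC2, and the right panel gives the median log2 difference of the tested members (points) beside that of all tested genes (dashed line, 0.02). The macrophage list has the highest count, 8 rises of 18 tested, and the highest median, 0.55.

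In the transcription factor list, 2 of 46 tested genes rose (Irf8 and Id3) and 3 fell (Bcl6, Bcl11a and Rbpj). Of all genes, 1.04% rose and 0.91% fell. Id3, an inhibitor of E proteins, read 45.8 and 44.5 in WT and 61.9 and 55.3 in Flt3L KO (log2 0.37, SE 0.08, limma adjusted p = 0.0267), and Bcl6, a repressor needed for cDC development, 631 and 599 against 479 and 490.0 (log2 -0.34, SE 0.08, limma adjusted p = 0.0471). Both calls were lost without either WT array or without Flt3L KO replicate 1, and that of Bcl6 also without replicate 2, with adjusted p-values of up to 0.22 for Id3 and 0.273 for Bcl6. Of 30 immediate early and ERK feedback genes, 3 fell and 0 rose by limma (median -0.08), beside the 0.91% of all genes that fell. Such genes respond to growth factor signalling, which was not tested. Egr3, an early growth response factor, read 371 and 355 in WT and 245 and 235 in Flt3L KO (log2 -0.59, SE 0.08, limma adjusted p = 0.00369) and held with any 1 array left out. Egr2, its paralog, fell from 2535 and 2533 to 1761 and 2029, and Btg2, an antiproliferative gene, from 1970.3 and 2173 to 1449 and 1416. Their adjusted p-values were up to 0.279 and 0.0993 with 1 array left out, without Flt3L KO replicate 1 for Egr2 and without WT replicate 2 for Btg2.

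The lists of signalling and survival genes that follow had 1 or 2 calls each, beside the 1.95% of all genes called. Of 25 JAK-STAT genes, Socs3, a feedback inhibitor of cytokine receptors, rose (log2 0.48, SE 0.10, limma adjusted p = 0.0242) and Bcl6 fell. Of 30 PI3K, mTOR and FOXO genes, S1pr1, the sphingosine 1-phosphate receptor that guides cell exit and a FOXO target, rose from 38.0 and 42.4 to 63.9 and 66.2 (log2 0.70, SE 0.10, limma adjusted p = 0.00437; 0.0565 without WT replicate 1). Of 33 cytokine and growth factor receptors, Csf3r alone was called. Of 24 BCL2 family genes, the survival gene Bcl2l1 rose from 86.9 and 90.8 to 120.1 and 119 (log2 0.43, SE 0.09, limma adjusted p = 0.0234), a call lost without any 1 array (adjusted p up to 0.185, without WT replicate 1), as was that of Socs3 without either WT array or Flt3L KO replicate 1 (up to 0.21).

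Cytokine and maturation genes moved in both directions, beside 1.04% of all genes that rose and 0.91% that fell. In the cytokine list 3 of 25 tested genes rose, Il1a, Il12b and Osm, and 2 fell, Tnfsf8 and Flt3l. Osm, the oncostatin M gene, was the firmest, at 55.6 and 61.6 in WT and 83.9 and 88.0 in Flt3L KO (log2 0.55, SE 0.08, limma adjusted p = 0.00479; 0.0632 without WT replicate 1). Tnfsf8, the CD30 ligand, read 77.6 and 81.0 in WT and 48.0 and 53.7 in Flt3L KO. The others were less firm: without WT replicate 2 Il12b had a limma adjusted p of 0.388 and Tnfsf8 of 0.187, and without WT replicate 1 Il1a had 0.297. In the maturation list 3 of 28 rose, Fscn1 (an actin-bundling protein of mature dendritic cells), Il12b and Anxa3, and 1 fell, Pdcd1lg2 (the PD-L2 checkpoint ligand), with a median of 0.12. All 4 lost their call without WT replicate 2, at adjusted p-values of 0.144, 0.388, 0.225 and 0.345. Cxcl2, a neutrophil-attracting chemokine, read 79.3 and 75.4 in WT and 126 and 142 in Flt3L KO (log2 0.79, SE 0.13, limma adjusted p = 0.00964; up to 0.0934 without WT replicate 2). It and S1pr1 were the 2 called among 28 chemokine and migration genes.

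Antigen presentation and pattern recognition lists had 0 to 4 calls each, again beside 1.95% of all genes. Of 19 MHC class II pathway genes, Ctsd, a lysosomal protease, rose (log2 0.59, SE 0.10, limma adjusted p = 0.014) and H2-Ob, a subunit of the peptide-loading inhibitor H2-O, fell (log2 -0.40, SE 0.08, limma adjusted p = 0.0196). Of 16 MHC class I genes 0 were called by limma, with a median of 0.13. Among 28 C-type lectins 1 rose (Clec4e) and 3 fell (Cd209a, Clec4a4 and Cd209b). Among 20 Toll-like receptor genes Tlr8, a sensor of RNA, rose (log2 0.59, SE 0.13, limma adjusted p = 0.039) and Cd180 fell (log2 -0.50, SE 0.12, limma adjusted p = 0.0487). Of 31 interferon-stimulated genes, Oasl1 rose from 145 and 133 to 296 and 229 and 0 fell by limma, with a median of 0.16. That median lay between -0.02 and 0.32 with 1 array left out. The summed intensity of the list overlapped between genotypes, at 13789.8 and 13069.2 in WT and 16493.1 and 13746.5 in Flt3L KO. The calls of Ctsd, H2-Ob, Tlr8, Cd180 and Oasl1 were each lost without WT replicate 2, and each also without Flt3L KO replicate 1. Their smallest differences with 1 array left out were 0.44 for Ctsd, -0.32 for H2-Ob and 0.50 for Tlr8. For Cd180 the smallest was -0.32 and for Oasl1 0.72.

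Of 48 tested cell cycle genes 0 were called by limma. The median difference was 0.20 and the highest 0.46, and 44 were positive, but the median was 0.07 without Flt3L KO replicate 1. Their summed intensity overlapped between genotypes, at 20012 and 21425 in WT and 23187 and 21260 in Flt3L KO. Glycolysis and heat shock lists had 0 calls by limma among 25 and 18 tested genes, with medians of 0.05 and -0.06. Marker lists of other blood cells gave at most 1 call in each direction. For B cells Bank1, a signalling adaptor, fell, and for neutrophils Csf3r rose and Mmp9 fell. For plasmacytoid dendritic cells Atp1b1, a sodium pump subunit, rose (log2 0.59, SE 0.12, limma adjusted p = 0.0244), and for stromal and endothelial cells Kdr, the VEGF receptor, rose (log2 0.99, SE 0.18, limma adjusted p = 0.0141). The calls of Atp1b1 and Kdr were both lost without either WT array and without Flt3L KO replicate 1. T cell, NK cell, erythroid, platelet, plasma cell, basophil and progenitor lists held 0 calls by limma. The list of Y-linked genes and Xist also held 0 calls among 3 tested members. Its median was -0.32, and -0.16 when dim genes were kept.

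Among the named falls, Serpinb2, a plasminogen activator inhibitor, read 63.6 and 48.4 in WT and 19.7 and 29.8 in Flt3L KO (log2 -1.19, SE 0.21, limma adjusted p = 0.0138; up to 0.134 without WT replicate 1). Mmp12, the macrophage elastase, read 2552 and 2143 in WT and 865 and 1647 in Flt3L KO (log2 -0.97, SE 0.22, limma adjusted p = 0.0454; up to 0.27 without WT replicate 1), and Mmp9, a gelatinase, 83.4 and 145 against 47.9 and 56.8 (log2 -1.08, SE 0.22, limma adjusted p = 0.0267; up to 0.224 without WT replicate 2). These 3 showed wide spread within a genotype. Cd101, an inhibitory immunoglobulin-like receptor, was tight, at 166 and 158 in WT and 78.7 and 81.7 in Flt3L KO (log2 -1.01, SE 0.09, limma adjusted p = 0.000159). Abca9, a lipid transporter of the ABC family, read 146 and 148 in WT and 77.4 and 82.1 in Flt3L KO (log2 -0.88, SE 0.09, limma adjusted p = 0.000626). Serpinb10, Pnma1, Dancr, Fam71a and Adgrl3, the latrophilin-3 adhesion receptor, also fell and held with any 1 array left out. Bank1 read 236 and 310 in WT and 156 and 145 in Flt3L KO, a fall of 0.85 on the log2 scale (SE 0.15, limma adjusted p = 0.0123; up to 0.138 without WT replicate 2).

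**Figure D4:**
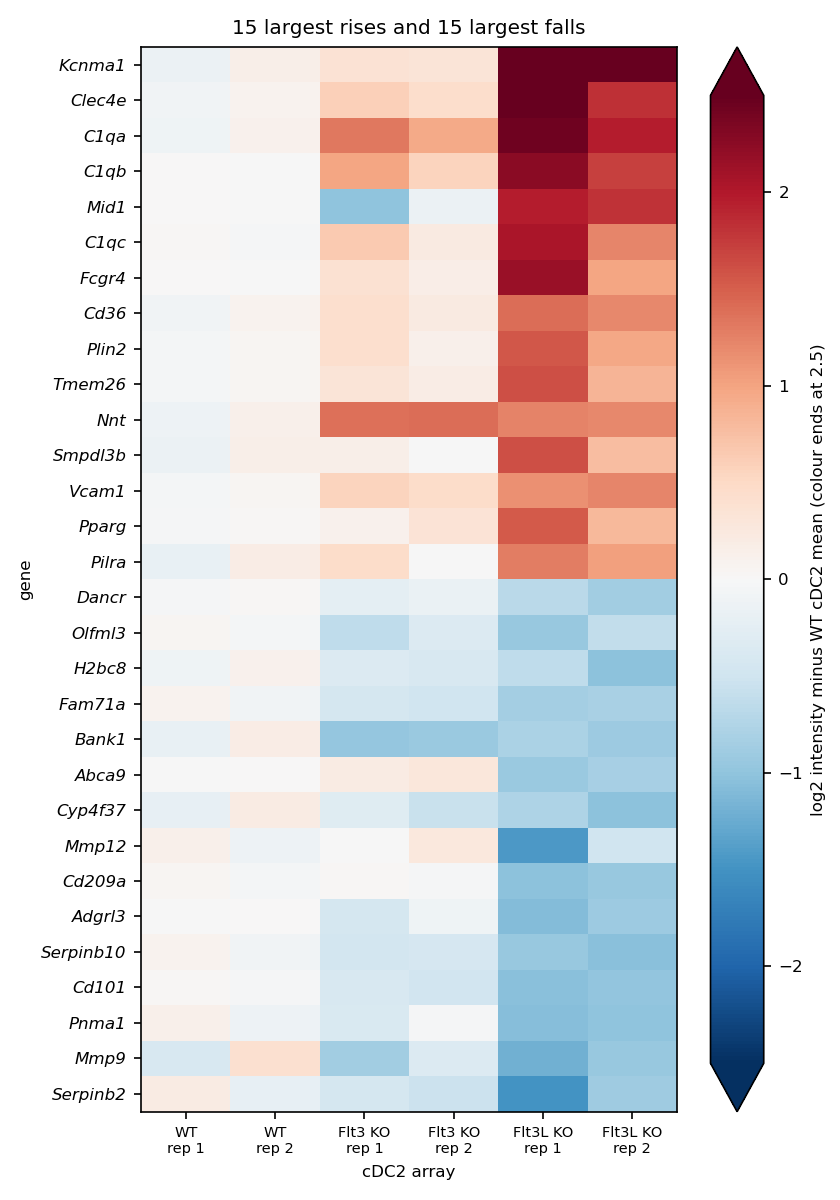
Rows are the 15 largest called rises and the 15 largest called falls, leaving out predicted, clone-named and small RNA genes, and columns are the 6 cDC2 arrays. Colour gives log2 intensity minus the WT cDC2 mean, with the scale ending at 2.5 in either direction. Nnt is high and Bank1 low on the Flt3 KO arrays as well, whereas Cd209a, Abca9, Smpdl3b and Mid1 depart from WT on the Flt3L KO arrays without a similar shift on the Flt3 KO arrays.

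Kcnma1, Mid1 and Nnt had large differences whose values are set beside those of cDC1. Kcnma1, the BK potassium channel, read 13.7 and 16.8 in WT cDC2, under the lower quartile of those arrays, and 953 and 87.6 in Flt3L KO cDC2. In cDC1 it read 19.2 and 15.7 in WT and 689 and 96.9 in Flt3L KO, so replicate 1 was the higher of the knockout arrays in both cell types. The fitted difference in cDC2 was 4.26 with an SE of 0.90 (limma adjusted p = 0.0308; 0.209 without Flt3L KO replicate 1), but WT lay at background, so its size has no firm base and the gene was tested only because of the Flt3L KO arrays. In cDC1 it did not pass (limma adjusted p = 0.0599). Mid1, a ubiquitin ligase whose gene crosses the pseudoautosomal boundary in C57BL/6 mice, read 398 and 395 in WT cDC2, 1554 and 1382 in Flt3L KO cDC2 and 198 and 359 in Flt3 KO cDC2 (Flt3L KO against WT log2 1.89, SE 0.23, limma adjusted p = 0.00152). In cDC1 it rose by 2.39 on the log2 scale. Nnt, a mitochondrial transhydrogenase whose gene carries a deletion in C57BL/6J mice, read 102 and 121 in WT cDC2, 263 and 256 in Flt3L KO cDC2 and 291 and 291 in Flt3 KO cDC2 (Flt3L KO against WT log2 1.22, SE 0.09, limma adjusted p = 3.07e-05). Since the labels give no strain, genetic background and genotype cannot be told apart for these genes.

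Small RNA genes fall outside the rule for naming and were looked at after their values were seen. The probe sets read the gene region, not the mature microRNA. Of 142 tested microRNA genes 0 rose and 5 fell by limma, with a median difference of 0.03, beside 0.91% of all genes that fell. Mature sequences of 4 of the 5 are given from RefSeq (GRCm38.p6), 5′ to 3′, with the seed (bases 2 to 8) in capitals, to show which share a seed.
miR-17-5p: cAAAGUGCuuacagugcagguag
miR-20a-5p: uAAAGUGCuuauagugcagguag
miR-142a-5p: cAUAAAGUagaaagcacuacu
miR-142a-3p: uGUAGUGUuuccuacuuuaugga
miR-674-5p: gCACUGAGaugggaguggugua
The first pair share the seed AAAGUGC and are products of the Mir17 cluster on chromosome 14, while Mir142, a gene of blood cells in general, lies on chromosome 11 and Mir674 on chromosome 2. The fifth gene was Mir103-2 (log2 -0.63, SE 0.13, limma adjusted p = 0.0288; up to 0.185 without WT replicate 1). Mir674 read 580.3 and 434 in WT and 252 and 273 in Flt3L KO (log2 -0.94, SE 0.14, limma adjusted p = 0.00479; up to 0.0634 without Flt3L KO replicate 1). Mir142 read 1601 and 1526 in WT and 889 and 777 in Flt3L KO (log2 -0.91, SE 0.14, limma adjusted p = 0.00558). Mir17 read 104 and 126 in WT and 76.9 and 64.2 in Flt3L KO (log2 -0.70, SE 0.12, limma adjusted p = 0.0141), and Mir20a 444 and 432 against 293 and 257 (log2 -0.67, SE 0.13, limma adjusted p = 0.0225). Both knockout arrays were lower than both WT arrays in each, as for every called fall. Without WT replicate 1 the limma adjusted p was 0.0574 for Mir142 and 0.162 for Mir20a, and without WT replicate 2 it was 0.165 for Mir17. In the same cluster Mir18 and Mir19a differed by -0.74 and -0.75 without passing (SE 0.21 for each, limma adjusted p = 0.109 and 0.104). Of 49 tested small nucleolar RNA genes 9 fell and 1 rose, with a median of -0.18, beside 0.91% and 1.04% of all genes. With any 1 of the 4 arrays left out, 1 to 3 of them fell and 0 rose by limma.

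The effect of ligand loss was then tested against that in cDC1, as the difference between the cDC2 and cDC1 changes. In cDC1, Flt3L KO differed from WT in 178 genes (1.19% of those tested). The difference of effects was called for 74 genes (0.495%), 37 in each direction, with a median SE of 0.13. This count ranged from 20 without WT cDC2 replicate 1 to 484 without WT cDC1 replicate 2, and it was 64 without WT cDC1 replicate 1, the array that stood apart from the rest in its lower quartile of 25.7 against 23.3 to 24.3. Of the 74 named genes called in cDC2, 20 were called for the difference. Cd36 gave the smallest adjusted p: it rose in cDC2 and fell by 0.52 on the log2 scale in cDC1, where it read 1063 and 1112 in WT and 712 and 808 in Flt3L KO (difference of effects 1.82, limma adjusted p = 0.000317). C1qa read 84.0 and 78.8 in WT cDC1 and 82.4 and 88.0 in Flt3L KO cDC1, so the rise in cDC2 exceeded that in cDC1 by 2.14 (limma adjusted p = 0.00136). Clec4e (2.34), C1qb (2.04), Cxcl2 (1.34), P2ry14 (1.13), Lyz2 (1.08), Mertk (0.92) and Vcam1 (0.88) had positive differences of effects, and Abca9 (-1.07) and Cd101 (-0.94) negative ones. These 11 genes kept that call under every alternative in which they were tested.

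**Figure D5:**
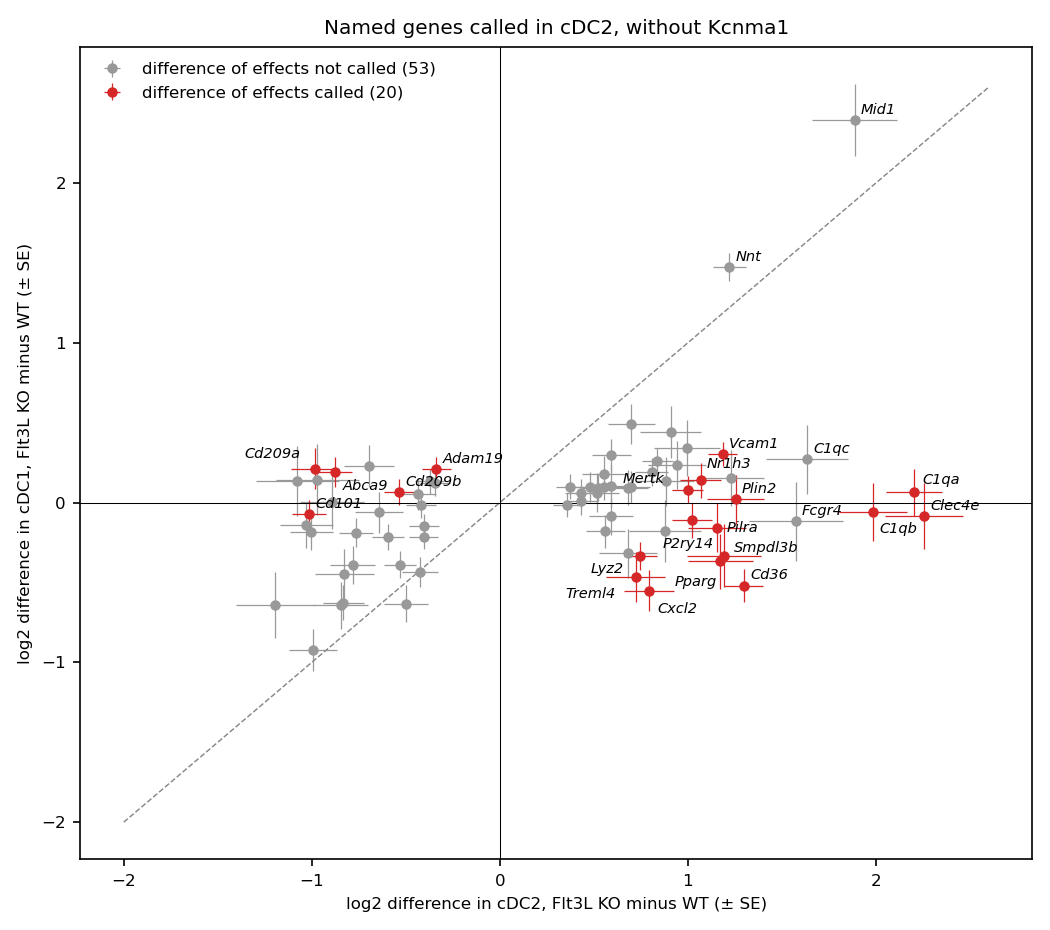
Log2 difference between Flt3L KO and WT in cDC2 (x axis) and in cDC1 (y axis) with SE bars, for 73 named genes called in cDC2; the dashed line marks equal change and Kcnma1 lies outside the plot. The 20 genes whose effects differed by the test (red) lie in cDC1 between Cxcl2 (-0.55) and Vcam1 (0.30), and Mid1 and Nnt lie near the line.

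By calls, 26 genes were shared between the cell types, which have no array in common, although the labels do not say whether cDC1 and cDC2 came from the same mice. Of these 23 changed in the same direction, 7.9% of the cDC2 calls and 12.9% of the cDC1 calls. They included Mid1, Nnt, Adgrl3 (-0.99 in cDC2 and -0.92 in cDC1), Btg2, Cd180 and Fam71a, and, named after their values were seen, the vitamin D receptor Vdr (0.63 and 0.83), the amino acid transporter Slc7a5 (0.37 and 0.39) and the prostaglandin-degrading enzyme Hpgd (-0.57 and -1.11). Timd4, given above among the macrophage markers, also fell in both cell types (-0.65 in cDC2 and -0.90 in cDC1). The opposite direction was seen for Cd36 and, likewise chosen afterwards, Plxdc1 and Rgs12. In cDC2 the calls of Vdr, Slc7a5, Plxdc1 and Rgs12 were lost without any 1 of the 4 arrays, with adjusted p-values of up to 0.176, 0.191, 0.207 and 0.281, and that of Hpgd reached 0.226 without WT replicate 1. The called genes were also set against the cell type difference in the Flt3 KO arrays, which neither group uses and where 5305 genes (35.5%) differed between cDC2 and cDC1. Of the 155 rises 28.4% were higher in cDC1 and 47.1% higher in cDC2 there, and of the 136 falls 25% and 52.9%, compared with 19.1% and 16.4% of all tested genes. Rises and falls alike held more cDC2-biased than cDC1-biased genes. Genes expressed in cDC2 are more readily called between groups of cDC2, and all tested genes were not matched for such expression. The excess is therefore not read as a result about the called genes.

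Loss of the ligand was last compared with loss of the receptor in cDC2. Against the same WT arrays, Flt3 KO cDC2 gave 16 calls (0.107%), and since both knockouts use those arrays, values are set side by side and the knockouts were tested against each other directly. That test called 139 genes (0.93%), 69 higher and 70 lower in Flt3L KO cDC2. Its count depended on Flt3L KO replicate 1, without which it was 8, and was 21 without Flt3 KO replicate 2, 50 without Flt3 KO replicate 1 and 130 without Flt3L KO replicate 2. C1qa read 363 and 280 in Flt3 KO cDC2, between WT and Flt3L KO, and differed from Flt3L KO by 1.07 (limma adjusted p = 0.00697; 0.0708 without Flt3 KO replicate 2 and 0.0687 without Flt3L KO replicate 1). C1qb read 234 and 174 there and C1qc 130.1 and 96.0, again between the others. Cd36 (73.0 and 63.2, difference 0.98), Clec4e (60.7 and 53.9, 1.74), Mertk (36.9 and 33.3, 0.75), Vcam1 (130 and 121, 0.67) and Abca9 (169 and 178, -1.12) differed between the knockouts under every alternative in which they were tested, as did Mid1 (2.46).

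Cd209a read 1562 and 1517 in Flt3 KO cDC2, overlapping WT, and was 0.98 lower on the log2 scale in Flt3L KO (difference -0.98, SE 0.13, limma adjusted p = 0.00429; 0.0687 without Flt3L KO replicate 1). Cd4 and Clec9a, not called against WT, were lower in Flt3L KO than in Flt3 KO cDC2 (differences of -0.56 and -0.71, limma adjusted p = 0.0279 and 0.0226). Without Flt3L KO replicate 1 these were 0.242 and 0.206, without Flt3 KO replicate 2 0.195 and 0.216, and without Flt3 KO replicate 1 that of Cd4 was 0.111. Other genes had like values in both knockouts. Lyz2 read 1296 and 1129 in Flt3 KO cDC2 and differed from Flt3L KO by 0.01 (SE 0.09), Irf8 read 405 and 409 (difference 0.04, SE 0.08), Fabp5 596 and 549 (0.10, SE 0.09) and Osm 88.0 and 82.4 (0.01, SE 0.08). None of these 4 passed the test between the knockouts (limma adjusted p = 0.695 to 0.983), and the SEs leave room for differences of that size in either direction.

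Of 5315 tested probe sets without a single gene symbol, 38 (0.715%) were called, 24 higher and 14 lower in Flt3L KO cDC2, and they are not named here.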

How the data were processed

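RNA labelled for GeneChip gene arrays was measured on 12 arrays. The intensity values are those deposited by the authors, 1 per probe set on a linear scale; their summarisation and normalization are not given in the sources used here, and neither are detection calls. Of 30177 probe sets, 21789 had exactly 1 gene symbol, and for 999 genes with several probe sets the brightest on average was used. The dimmest share of 0.25 of 19938 genes was left out, except Flt3 and Flt3l. A limma 3.58.1 model (R 4.3.3) of log2 intensity estimated the 6 group means with 6 residual degrees of freedom, with a Benjamini-Hochberg correction of p-values per comparison. The comparison, the 42 gene lists and the rule for naming genes were chosen with earlier results of these data known. The rule took the 15 largest called rises and 15 largest called falls without predicted or small RNA genes, up to 6 called members of each list, Flt3, Flt3l, Nnt, Mid1, called neighbours of Flt3l and 14 identity markers. The fit was also run on simulated data with independent noise drawn from its own variance estimates. That run cannot check whether the assumptions of the fit hold for these arrays. Alternatives were quantile normalization, other filters, a trended robust prior, averaged probe sets, only the arrays compared, a replicate block and each array left out. A lone array was then assumed to vary like the other groups.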

Additional observations from a re-analysis of the deposited data

Results flagged for a closer look

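The change with ligand loss differed between cDC2 and cDC1, by limma's test of the difference of effects, for 20 of the named genes. Differences are the log2 change in cDC2 minus that in cDC1. They were positive for Clec4e (2.34), C1qa (2.14), C1qb (2.04), Cd36 (1.82), Pparg (1.54), Smpdl3b (1.52), Cxcl2 (1.34), Pilra (1.31), Plin2 (1.23), Treml4 (1.19), P2ry14 (1.13), Lyz2 (1.08), Nr1h3 (0.93), Mertk (0.92) and Vcam1 (0.88). They were negative for Cd209a (-1.19), Abca9 (-1.07), Cd101 (-0.94), Cd209b (-0.60) and Adam19 (-0.55). The calls of Adam19 and Cd209b were the least stable, each lost under 10 alternatives, with adjusted p-values of up to 0.187 and 0.173. Plin2, Smpdl3b and Treml4 each lost theirs under 6, Nr1h3 under 5, Pilra under 4 and Pparg and Cd209a under 3.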

How the results depend on the processing

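No call of a named gene reversed its direction under the alternatives run. For Flt3L KO against WT cDC2 most alternatives could not reverse one. The genotypes did not overlap in any called gene, so leaving out 1 array keeps the sign. Other filters, the trended prior, the replicate block and use of only the arrays compared leave the difference itself unchanged. The direction is therefore not read as a sign of stability. The 291 calls of Flt3L KO against WT cDC2 became 487 with a trended robust prior and ranged from 72 to 164 with 1 array left out. Leaving out the dimmest share of 0.5 of genes gave 328 calls, split 149 higher and 179 lower, and using only the arrays compared gave 366. The 139 calls against Flt3 KO cDC2 became 268 with the trended prior and ranged from 8 to 130 with 1 array left out. The 74 differences of effects became 118 without that share, 208 with the trended prior and 37 with only the arrays compared, and ranged from 20 to 484 with 1 array left out. The causes were not tested. Same-numbered arrays did not meet the criterion for pairing, a correlation of deviations over 0.1 in every pair of groups. Over 15 pairs the correlation lay between -0.20 and 0.17. Groups of different genotypes share no mice, so the criterion could not decide whether cDC1 and cDC2 of one genotype were paired. Between cDC1 and cDC2 of one genotype the correlation was 0.16, 0.088 and 0.15. Whether those came from the same mice is not in the labels and was not tested. With the replicate number as a block the counts were 259, 127 and 63. That block gives all groups the same replicate effect, so it cannot represent pairing within a genotype. Of 74 called named genes, 26 kept their call under every alternative in which they were tested and 48 lost it without at least 1 array. With 2 arrays a group, precision is limited throughout, and dim genes lie close to the background.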
